A study of Acomys cahirinus and Mus musculus with 10 samples.

Results

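The 8 genes described here make or control the lipids of the sebaceous gland: *Scd1*, *Scd3*, *Awat1*, *Awat2*, *Elovl3*, *Mc5r*, *Dgat2* and *Fasn*. They were chosen by symbol with earlier results of these data known, although no measured value enters the rule itself. They were followed in ear tissue of the spiny mouse *A. cahirinus*, which regenerates an ear hole, and of *M. musculus*, which scars. In *M. musculus* they are 8 of the 23023 gene numbers in the D5 comparison. In *A. cahirinus* they are 7 of 659480 assembled components, because *Scd1* and *Scd3* both lead to the same component. RNA came from a ring of tissue next to the wound of sexually mature females, at D0 (uninjured), D5, D10, D15 and D20 after an ear punch. The labels name no transgene or treatment other than the punch, and the *M. musculus* housed with the *A. cahirinus* were outbred CD1 mice by the study's methods. The labels call the injured tissue regenerating in *A. cahirinus* and fibrotic in *M. musculus*. The design gave 3 animals per species and day, pooled in the deposited comparisons, so each value below is a group mean with no error between animals. The lowest means of a group are the steps made by single reads, and they numbered 3 in each group except *A. cahirinus* D15, where they numbered 2, so the D15 values of that species may rest on 2 libraries. The group means of a table sum to between 14454829 and 18203633 normalized counts in *A. cahirinus* and between 7330084 and 9409080 in *M. musculus*. These sums give the depth of an average library after scaling, and the depth of single libraries is unknown.

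Sebocytes, the cells of the sebaceous gland, fill with lipid and then burst, which releases sebum onto the hair and skin. Sebum is rich in wax esters and triglycerides. Fatty acids are built by fatty acid synthase, lengthened by elongases, desaturated by stearoyl-CoA desaturases and then joined to alcohols or glycerol by acyltransferases. Each ear hair follicle carries such a gland, and mature sebocytes carry a receptor for melanocortin peptides. Several of these enzymes also work in adipocytes, which lie in the same skin. In bulk tissue, fewer cells of a type and less RNA per cell cannot be told apart.

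The *Scd* genes code for enzymes that put a double bond into saturated fatty acids. *Scd1* lies at chr19:44394455-44407879 on the minus strand of GRCm38, *Scd3* at chr19:44203269-44244016 on the plus strand, and their neighbours *Scd2* and *Scd4* lie between them on the plus strand. The coding sequences of *Scd1* and *Scd3* are identical at 91.48% of 1068 aligned bases, and those of *Scd1* and *Scd2* at 90.36%. The same stretch of 120 coding bases is shown because it shows how alike the *Scd* genes are within and between the species. It is bases 152 to 271 of the *Scd1* coding sequence, inside exon 2, at chr19:44406514-44406633. Capitals mark each base that differs from *M. musculus* *Scd1*.
Mus Scd1: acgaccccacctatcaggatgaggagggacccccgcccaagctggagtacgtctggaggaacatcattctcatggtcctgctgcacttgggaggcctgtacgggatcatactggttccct
Mus Scd3: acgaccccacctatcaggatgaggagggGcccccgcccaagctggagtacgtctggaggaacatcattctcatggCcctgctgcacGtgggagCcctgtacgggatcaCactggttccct
Mus Scd2: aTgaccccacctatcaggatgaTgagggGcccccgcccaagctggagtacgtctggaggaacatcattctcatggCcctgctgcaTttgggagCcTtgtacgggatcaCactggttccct
Acomys contig nearest Scd1: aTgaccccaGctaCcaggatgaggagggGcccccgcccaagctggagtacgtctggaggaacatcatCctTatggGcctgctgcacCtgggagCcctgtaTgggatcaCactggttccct
Acomys contig nearest Scd2: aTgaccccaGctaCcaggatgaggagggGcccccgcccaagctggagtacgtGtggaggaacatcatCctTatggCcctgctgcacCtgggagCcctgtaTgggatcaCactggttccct
In this stretch *M. musculus* *Scd3* differed from *Scd1* at 5 bases and *Scd2* at 8. The *A. cahirinus* contigs differed from *Scd1* at 11 and 12 bases but from each other at only 2. Within this stretch both were closest to *Scd3*, at 8 bases, and differed from *Scd2* at 10. Their labels rest on the whole coding alignment, with 91.67% identity to *Scd1* for the first and 90.9% to *Scd2* for the second. Both contigs belong to 1 component. Of the contigs of that component with a match below 99% identity, 41 were closest to *Scd2*, 7 to *Scd1* and 7 to *Scd3*. The *A. cahirinus* value for *Scd1* and *Scd3* is therefore 1 pooled value for desaturase coding sequence.

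The wax alcohol acyltransferases *Awat1* and *Awat2* join fatty acids to long-chain alcohols to make wax esters. *Awat1* lies at chrX:100572251-100578205 on the plus strand and *Awat2* at chrX:100402221-100442717 on the minus strand, and their coding sequences are identical at 64.48% of 977 aligned bases. Their first 120 coding bases, which span exons 1 and 2, are shown because here each *A. cahirinus* component had 1 clear counterpart, in contrast to the *Scd* genes. Capitals mark bases that differ from the *M. musculus* gene.
Mus Awat1: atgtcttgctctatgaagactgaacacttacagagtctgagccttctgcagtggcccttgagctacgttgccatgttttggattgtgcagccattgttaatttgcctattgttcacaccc
Acomys Awat1: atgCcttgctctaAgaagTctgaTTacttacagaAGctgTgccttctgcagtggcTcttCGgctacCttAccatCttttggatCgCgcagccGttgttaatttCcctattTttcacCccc
Mus Awat2: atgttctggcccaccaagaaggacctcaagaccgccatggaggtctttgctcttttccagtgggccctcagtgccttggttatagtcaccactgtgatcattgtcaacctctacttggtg
Acomys Awat2: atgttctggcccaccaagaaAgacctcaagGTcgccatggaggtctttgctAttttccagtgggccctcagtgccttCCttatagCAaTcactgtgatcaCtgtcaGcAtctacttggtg
The species differed at 20 of these bases in *Awat1* and at 12 in *Awat2*. Over the whole alignments the *A. cahirinus* components were identical to *M. musculus* at 89.08% of 705 bp for *Awat1* and 89.25% of 1191 bp for *Awat2*. The same measure was 87.42% of 1081 bp for *Elovl3*, 89.24% of 1078 bp for *Mc5r*, 92.55% of 1651 bp for *Dgat2* and 88.94% of 5652 bp for *Fasn*. These 6 components also had the member as their own best hit, which the *Scd* component did not.

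Expression of the lipid genes was lower after injury in both species. A gene was called changed where the posterior probability of differential expression from EBSeq was at least 0.95. In *A. cahirinus* 3 of 7 components were called lower at D5, where 0.978% of all components and 4.09% of those with a mean of at least 10 were called lower. From D10 on the count was 6 of 7, against shares of 0.88% and 3.37% at D10, of 1.11% and 4.11% on D15, and of 0.9% and 3.86% on the last day. With a log2 fold change of at least 1 also required, the *A. cahirinus* counts were 1, 1, 5 and 5. In *M. musculus* 5 of 8 genes were called lower at D5, where 13.6% of all genes and 19.4% of those with a mean of at least 10 were called lower. The count was 7 of 8 at D10 (14.1% and 19.6%), 7 of 8 at D15 (12.5% and 17.9%) and 4 of 8 at D20 (11.9% and 17.0%). None was called higher in either species. The shares called higher from D5 to D20 were 1.78%, 1.28%, 1.33% and 0.948% of all components in *A. cahirinus* (7.52%, 5.06%, 5.13% and 4.02% of those with a mean of at least 10). In *M. musculus* they were 16.5%, 15.1%, 13.2% and 12.3% of all genes (23.8%, 21.3%, 18.9% and 17.6%). At D5, 148644 assembled components in *A. cahirinus* and 15805 gene numbers in *M. musculus* had a mean of at least 10. Shares of components and of genes are not comparable between the species. Over the 4 days, 21 of 28 comparisons in *A. cahirinus* and 23 of 32 in *M. musculus* were called lower. The 4 days of a species share 1 D0 group, so these comparisons are not independent of one another.

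The lowest day of the median was not the same in the 2 species. The median log2 fold change of the 7 *A. cahirinus* components ran through -0.57, -0.82, -1.47 and -1.42 from D5 to D20. At D15 and D20 this median is the value of the pooled desaturase component, which was not called. In *M. musculus* the median of the 8 genes ran through -1.04, -1.89, -1.46 and -0.53. The median over all features with a mean of at least 10 lay between -0.02 and 0.02 in every comparison. The genes did not all follow the median. In *M. musculus* *Scd1*, *Awat2* and *Elovl3* were lowest at D10, *Mc5r* and *Fasn* at D5, *Awat1* and *Dgat2* at D15 and *Scd3* at D20. In *A. cahirinus* *Awat1*, *Awat2*, *Elovl3*, *Mc5r* and *Fasn* were lowest at D15, *Dgat2* at D20 and the pooled desaturase component at D5. Some lowest days were near ties, such as 35.5 at D15 and 35.3 at D20 for *M. musculus* *Scd3*. The pooled component was likewise at 2901 at D5 and 2908 at D10. With no error between animals these days cannot be ranked firmly, and D15 in *A. cahirinus* may rest on 2 libraries. Averaged over the days, the median difference between species was 0.20 (*A. cahirinus* minus *M. musculus*), and it was -0.09 without D5. This median is over the 8 symbols, so that the pooled desaturase component, which was not called, enters it for both *Scd1* and *Scd3*, and the sign of the *Scd1* difference depends on the component chosen, as described with that gene. The difference between species could not be tested on pooled values.

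**Figure D1:**
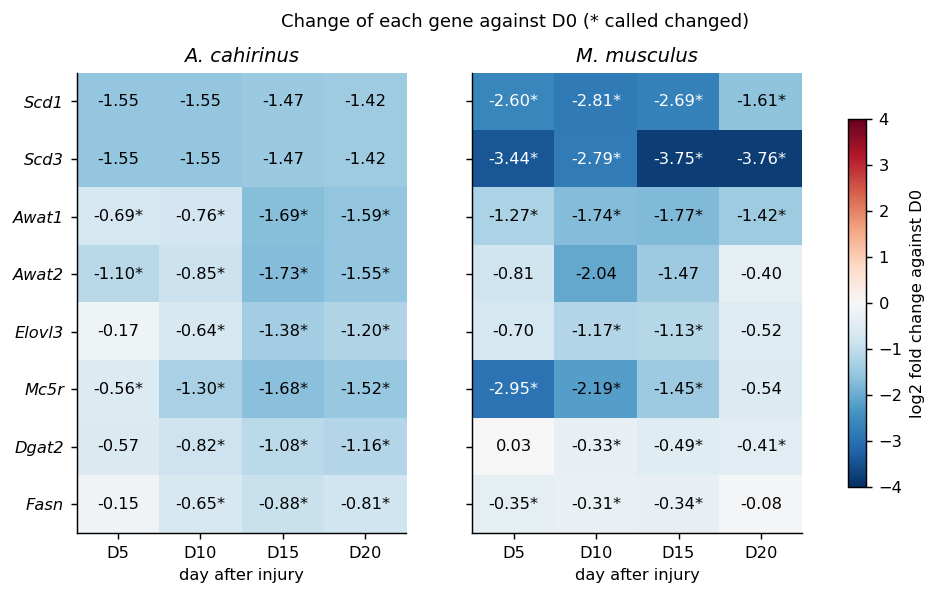
Log2 fold change against D0 of each gene (rows) at each day (columns) in *A. cahirinus* (left) and *M. musculus* (right), with blue for lower and an asterisk where the gene was called changed. *Scd1* and *Scd3* share 1 *A. cahirinus* component, and the only value above 0 is *Dgat2* at D5 in *M. musculus* (0.03).

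Of the desaturases, *Scd1* was the most abundant member in *M. musculus*, at 9044 normalized counts per kilobase of transcript at D0. Its group mean was 43747 normalized counts per library at D0 and then 7229, 6226, 6774 and 14351 from D5 to D20. It fell to 14.2% of D0 at D10, a log2 fold change of -2.81, and was at 32.8% at D20 (-1.61). It was called lower on all 4 days.

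*Scd3*, a desaturase known from sebocytes and the harderian gland, fell further in *M. musculus*. Its mean was 479 at D0 and then 44.2, 69.0, 35.5 and 35.3 from D5 to D20. All 4 days were called. The level was 13.5-fold lower at D20 (log2 fold change -3.76), the lowest of the 4 days. The 2 neighbours of the cluster differed from this: *Scd2* had log2 fold changes of 0.24, 0.34, 0.24 and 0.04 and *Scd4* of -0.85, -0.86, -0.64 and -0.30 from D5 to D20, none of them called. Whether reads of the *Scd* genes were exchanged in the authors' estimation of counts was not tested.

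In *A. cahirinus* the pooled desaturase component had a mean of 8497 at D0 and then 2901, 2908, 3067 and 3183 from D5 to D20. Its log2 fold change lay between -1.55 and -1.42, and it was not called on any day, with posterior probabilities of 0.51, 0.83, 0.57 and 0.04. It was the only component of the 7 with no call.

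The assembly also held separate components for the ends of *Scd1* and *Scd2*. A contig of 2273 bases matched *M. musculus* *Scd1* in its 3′ UTR, at transcript bases 2751 to 3035 (82.37% identity) and 3640 to 3774 (89.63%). Its component had *Scd1* as its own best hit. Whether it also matched genes other than the lipid genes, *Scd2* and *Scd4* was not examined. This component had a mean of 9881 at D0 and then 1021, 526, 1051 and 1112 from D5 to D20. Calls of lower expression came on all 4 days, with log2 fold changes of -3.28, -4.23, -3.23 and -3.15. A component that matched the 3′ UTR of *Scd2* (90.55% identity) had a mean of 1999 at D0 and log2 fold changes of -0.15, 0.09, -0.01 and 0.11, none called. The pooled coding component lay between these 2 on every day.

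The choice of component set the direction of the species difference for *Scd1*. By the coding component the mean log2 fold change over the days was -1.50 for *A. cahirinus* against -2.43 for *M. musculus*, a difference of 0.93. By the 3′ UTR component the difference was -1.05. When both pieces were summed it was 0.20, and when the coding component was set against the sum of the 4 *M. musculus* *Scd* genes it was 0.54. Without the limit on identity it was 2.04, from a component with a mean of only 4.43 at D0. The order of the species for *Scd1* is thus not settled by these values.

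**Figure D2:**
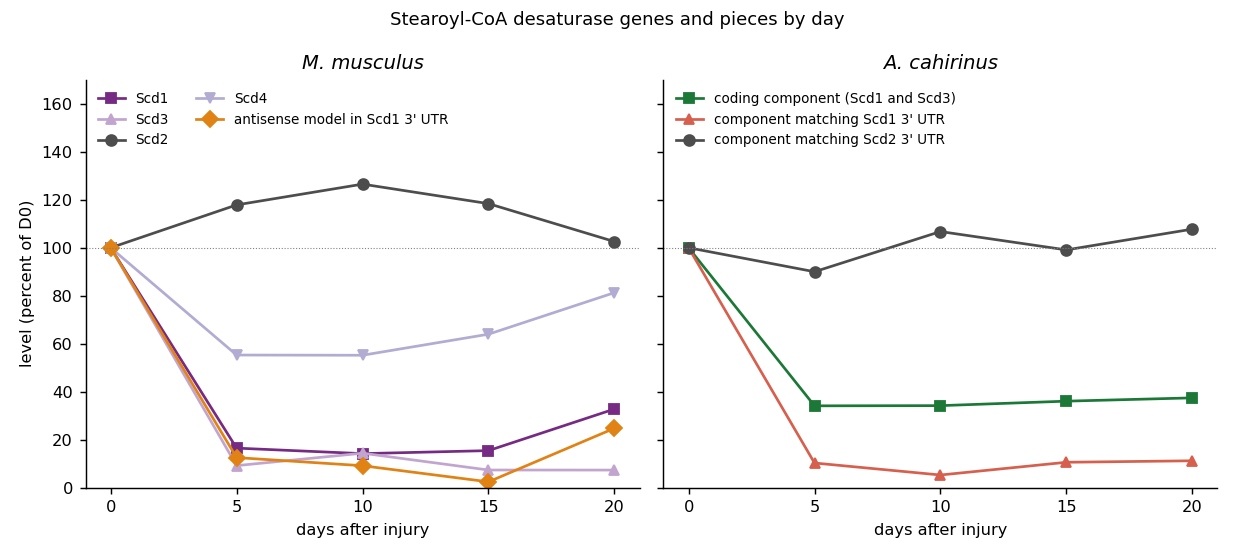
Level as a percentage of D0 (y axis) by day after injury (x axis) for the *Scd* genes of *M. musculus* and an antisense gene model within *Scd1* (left), and for the coding and 3′ UTR components of *A. cahirinus* (right). At D10 *Scd1* is at 14.2% in *M. musculus* and the pooled coding component of *A. cahirinus*, which was not called, at 34.2%, while the *Scd2* features lie near or above 100% in both species with no call.

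*Fasn* codes for fatty acid synthase, the first enzyme of the series, and lies at chr11:120805846-120824547. In *A. cahirinus* its mean was 13851 at D0 and then 12508, 8853, 7514 and 7899 from D5 to D20. It was called lower from D10, with log2 fold changes of -0.65, -0.88 and -0.81. In *M. musculus* its mean was 3924 at D0 and then 3086, 3160, 3097 and 3711 from D5 to D20. It was called lower at D5, D10 and D15 (-0.35, -0.31 and -0.34) and had a value of -0.08 at D20. *Fasn* had the smallest mean fold change of the 8 genes in both species.

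*Elovl3* elongates saturated and monounsaturated fatty acids and lies at chr19:46131897-46135694, on the same chromosome as the *Scd* cluster. In *A. cahirinus* its mean was 2286 at D0 and then 2027, 1463, 877 and 996 from D5 to D20. Calls of lower expression came at D10, D15 and D20 (-0.64, -1.38 and -1.20). In *M. musculus* its mean was 479 at D0 and then 295, 213, 218 and 333 from D5 to D20. It was called lower at D10 and D15 (-1.17 and -1.13). At D20 it was at 69.7% of D0 in *M. musculus* and 43.6% in *A. cahirinus*.

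*Awat1* was called lower on all 4 days in both species, the only one of the 8 genes of which this held. In *A. cahirinus* its mean was 929 at D0 and then 576, 548, 288 and 308 from D5 to D20, with log2 fold changes of -0.69, -0.76, -1.69 and -1.59. In *M. musculus* its mean was 230.2 at D0 and then 95.6, 68.8, 67.5 and 85.8 from D5 to D20, with log2 fold changes of -1.27, -1.74, -1.77 and -1.42. The *A. cahirinus* transcript was assembled in 2 pieces that cover bases 12 to 713 and 722 to 1078 of the *M. musculus* transcript. The second piece, with a mean of 814 at D0, gave -0.77, -0.66, -1.54 and -1.62, all called, so the pieces of 1 transcript differed by at most 0.15 in log2 fold change.

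*Awat2* was likewise called lower on all 4 days in *A. cahirinus*. Its mean there was 501 at D0 and then 235, 279, 151 and 172 from D5 to D20, with log2 fold changes of -1.10, -0.85, -1.73 and -1.55. In *M. musculus* it was barely expressed, at 20.2 at D0 and then 11.5, 4.90, 7.30 and 15.3 from D5 to D20, and it was called on no day although the log2 fold change was -2.04 at D10. A mean of 20.2 over 3 libraries is about 61 reads, with a counting error of 12.8%, the largest of the 8 genes at D0.

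*Dgat2* codes for a diacylglycerol acyltransferase of the same family as the *Awat* genes, which makes triglycerides in many tissues, and lies at chr7:99153658-99182719. In *A. cahirinus* its mean was 2344 at D0 and then 1579, 1332, 1109 and 1051 from D5 to D20. It was called lower at D10, D15 and D20 (-0.82, -1.08 and -1.16). In *M. musculus* its mean was 1243 at D0 and then 1269, 989, 887 and 935 from D5 to D20. Calls of lower expression came at D10, D15 and D20 (-0.33, -0.49 and -0.41). The value was lower in *A. cahirinus* than in *M. musculus* on each day, by 0.49 to 0.75 on the log2 scale.

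*Mc5r* codes for the melanocortin 5 receptor, which is needed for normal sebum secretion in mice. Its lowest day was the first after injury in *M. musculus* and a later one in *A. cahirinus*. In *M. musculus* its mean was 49.9 at D0 and then 6.47, 10.9, 18.2 and 34.2 from D5 to D20. Its log2 fold change was -2.95 at D5, -2.19 at D10 and -1.45 at D15, all called, and -0.54 at D20, not called. In *A. cahirinus* its mean was 328.9 at D0 and then 223.8, 133.7, 102.8 and 114.8 from D5 to D20. All 4 days were called, with log2 fold changes of -0.56, -1.30, -1.68 and -1.52. The difference between species went from 2.39 at D5 to -0.97 at D20, and its mean over the days was 0.52 with D5 and -0.10 without it.

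**Figure D3:**
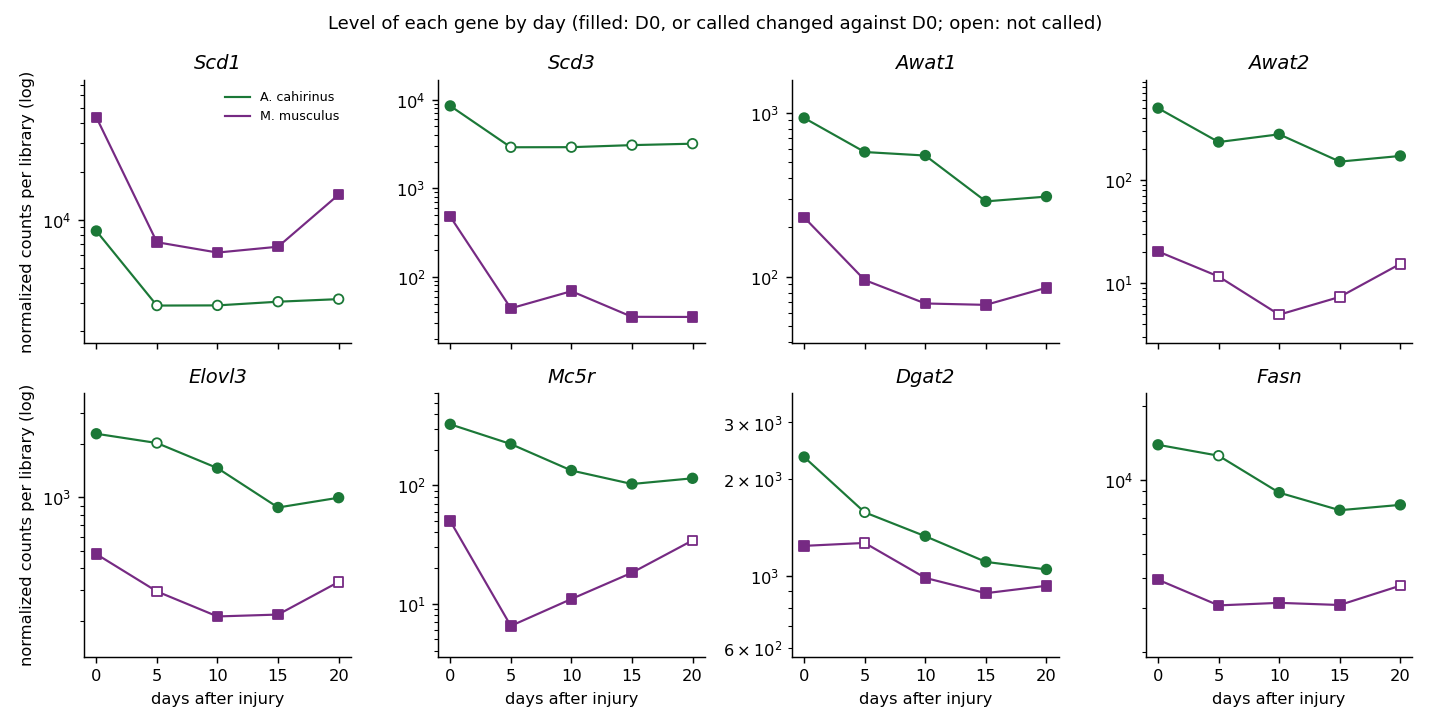
Mean level in normalized counts per library (y axis, log scale) by day after injury (x axis) for each gene in *A. cahirinus* (circles) and *M. musculus* (squares), with filled points for D0 and for days called changed and open points for days not called. *Mc5r* in *M. musculus* is lowest at D5 (6.47) and climbs to 34.2 at D20, whereas in *A. cahirinus* it is lowest at D15 (102.8). The species were scaled separately, so the heights of the lines are not comparable between them.

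In *M. musculus* the genes stood in the order *Scd1* (9044 normalized counts per kilobase at D0), *Dgat2* (552), *Fasn* (395), *Elovl3* (255), *Awat1* (165), *Scd3* (138), *Mc5r* (43.0) and *Awat2* (12.7). Whether neighbours in this order differ beyond the spread between animals cannot be told from pooled values. At D5 the order was *Scd1*, *Dgat2*, *Fasn*, *Elovl3*, *Awat1*, *Scd3*, *Awat2* and *Mc5r*, so that *Mc5r* had dropped below *Awat2* (5.57 against 7.24).

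Other genes of the pathway were described from lists of symbols, written with earlier results of these data known. Their counts stand against the shares of all features given above, which over the 4 days were 0.88% to 1.11% called lower and 0.948% to 1.78% called higher in *A. cahirinus* (3.37% to 4.11% and 4.02% to 7.52% of those with a mean of at least 10). In *M. musculus* these shares were 11.9% to 14.1% and 12.3% to 16.5% (17.0% to 19.6% and 17.6% to 23.8%). Among 9 further genes of fatty acid synthesis, 3 to 5 were called lower in *A. cahirinus* and 5 or 6 in *M. musculus* on each day. *Acly* was called higher in *A. cahirinus* at D5 (0.45), and *Mcat* in *M. musculus* at D10 and D15 (0.82 and 0.78). *Acacb*, an acetyl-CoA carboxylase, fell on all 4 days in both species, with a mean log2 fold change of -0.73 for *A. cahirinus* against -1.96 for *M. musculus*. *Acss2*, which makes acetyl-CoA from acetate, fell by 1.39 on the log2 scale in *M. musculus* as a mean over the days, with 4 days called. *Elovl6*, the elongase of palmitate, averaged -1.55 in *M. musculus* with 3 days called. In *A. cahirinus* *Acss2* averaged -1.20 with 3 days called and *Elovl6* -0.80 with 4.

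The list of wax, sterol ester and triglyceride synthesis holds the other enzymes of the last steps. Of its 15 components in *A. cahirinus*, 6, 8, 11 and 11 were called lower and 2, 1, 0 and 0 higher, with a median log2 fold change of -0.32, -0.65, -1.01 and -1.12 from D5 to D20. Of 16 genes in *M. musculus*, 9, 11, 9 and 7 were called lower and 1 was called higher at D20, with medians of -0.57, -0.93, -1.02 and -0.69. *Far2*, which makes fatty alcohols for wax esters, fell to 408 from 2425 at D10 in *M. musculus* (-2.57) and was called on 4 days. In *A. cahirinus* it averaged -0.99 with 3 days called. *Fa2h*, which hydroxylates fatty acids, fell on 4 days in both species, to -2.42 at D15 in *M. musculus* and -1.45 in *A. cahirinus*. *Mogat1* averaged -2.71 in *M. musculus* with 2 days called, from a mean of only 23.6 at D0.

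Among the other desaturases and elongases the calls were mixed. In *A. cahirinus* 3 to 6 of 11 components were called lower and 2 to 4 higher, and 1 of the 11, which was not called, is the pooled desaturase component itself, reached here through *Scd2* and *Scd4*. In *M. musculus* 2 to 4 of 9 genes were called lower, and 1 was called higher at D5. *Elovl4*, which makes very long chain fatty acids, fell on 4 days in *A. cahirinus* (mean -0.93) and on 3 in *M. musculus* (mean -1.02). *Fads1* and *Fads2*, desaturases of polyunsaturated fatty acids, rose in *A. cahirinus*, on 4 and 3 days with means of 1.06 for both, and no *M. musculus* gene number was named for them.

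Among the droplet and lipase genes, 4, 8, 8 and 7 of 11 components were called lower in *A. cahirinus* and 4 or 5 of 8 genes in *M. musculus*. At D5 in *A. cahirinus* as many were called higher, namely *Plin2*, *Plin3*, *Fabp5* and *Mgst1* (0.12, 0.83, 1.17 and 0.34), and the summed level of the list was at 114.9% of D0, against 52.3% at D20. At D10 and D15 1 component was called higher there, and no gene of the list was called higher in *M. musculus*. *Cidea*, a lipid droplet protein of sebocytes and brown fat, fell on 4 days in both species, to 51.3 from 371.6 at D10 in *M. musculus* and to 233 from 865 at D20 in *A. cahirinus*. *Cidec*, a droplet protein of white fat, averaged -2.55 over 4 called days in *A. cahirinus*. *Plin5* had a mean of only 15.9 at D0 in *M. musculus* and was called on 3 days there.

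Of 12 cholesterol synthesis genes, 2, 3, 5 and 7 were called lower and 4, 1, 1 and 1 higher in *A. cahirinus*. Of 10 in *M. musculus*, 4 to 7 were called lower and none higher. *Cyp51*, *Idi1* and *Hmgcs1* fell on all 4 days in *M. musculus*, with means of -0.99, -0.88 and -0.84. Their means in *A. cahirinus* were -0.41, -0.48 and -0.29, with 3, 4 and 1 days called.

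The regulators moved apart from one another. *Pparg*, the nuclear receptor required for sebocyte differentiation, fell on 4 days in *A. cahirinus* (-1.01, -1.58, -1.59 and -1.48). In *M. musculus* it was called lower on 3 days, with values of -1.51, -1.85, -1.57 and -0.70. The part of fat cells in the *Pparg* values was not tested. *Mlxipl*, a glucose-responsive activator of lipid synthesis, fell on 4 days in *M. musculus*, to 5.83 from 90.3 at D5. In *A. cahirinus* it averaged -3.67 with 2 days called, from a mean of only 18.8 at D0. *Thrsp*, a lipogenic factor, averaged -2.35 over 4 called days in *A. cahirinus* and was not called in *M. musculus*. Its mean in *M. musculus* was only 17.64 at D0, and its log2 fold changes from D5 to D20 were -2.5, -0.77, -1.44 and 0.0.

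The sterol-sensing regulators differed among themselves. *Srebf1* was called on no day in *A. cahirinus* (-0.07, -0.23, -0.32 and -0.38) and lower on 2 days in *M. musculus* (-0.39 and -0.48), whereas *Srebf2* and *Scap* rose on all 4 days in *M. musculus*, to 0.62 and 0.73 at D5. *Insig1* and *Insig2* had mean log2 fold changes between -0.41 and 0.12 in the 2 species, with *Insig2* called lower on 3 days in *A. cahirinus* (-0.47, -0.35 and -0.52) and at most 1 day called for the others. *Nr1h2* averaged 0.40 in *A. cahirinus* with 3 days called, *Rxra* was called on 1 day in each species, and *Nr1h3* passed a mean of 10 only in *M. musculus*, with no call. *Prdm1* was called higher at D10 (0.36) and lower at D15 (-0.34) in *A. cahirinus* and on no day in *M. musculus*. *Myc* fell on 4 days in *M. musculus* (mean -0.58) and was called on 1 day in *A. cahirinus*, where its value at D5 was 1.09.

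None of the other melanocortin genes was called on any day in either species, and only 2 of the 8 in *M. musculus* and 1 of the 3 in *A. cahirinus* reached a mean of 10. *Mc1r*, the receptor of pigment cells, was at 54.2 at D0 in *M. musculus*, and *Pomc*, the precursor of the ligands, was at 0.76 there and 4.54 in *A. cahirinus*. *Mrap*, an accessory protein of melanocortin receptors, had means of 5.17, 0.50, 1.75, 4.35 and 6.98 from D0 to D20 in *M. musculus*, with no call.

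Markers of the gland duct and junctional zone, the follicle region that feeds the gland, moved both ways. In *A. cahirinus* 3, 3, 4 and 4 of 6 components were called lower and 1 higher at D5, and in *M. musculus* 2, 3, 2 and 0 of 5 genes were called lower and 0, 1, 1 and 1 higher. *Lrig1*, a stem cell marker of this zone, was called higher in *M. musculus* from D10 (0.57, 0.75 and 0.73) and lower in *A. cahirinus* on 3 days. *Plet1* was called higher in *A. cahirinus* at D5 (3.51) and lower in *M. musculus* at D10 (-0.78). *Lgr6*, another such marker, fell on 4 days in *A. cahirinus* and 3 in *M. musculus*, with means of -1.13 and -1.23. *Sox9*, a follicle stem cell factor, fell on 4 days in *A. cahirinus* (mean -1.24). In *M. musculus* it went from -1.60 at D5 to -0.04 at D20, with 3 days called. The ear pinna also holds cartilage, and the part of cartilage cells in the *Sox9* values was not tested. *Gata6*, of the upper duct, averaged -1.71 in *A. cahirinus* with 2 days called. *Krt79*, a keratin of duct cells, was called on 1 day in *A. cahirinus* and on none in *M. musculus*, where its log2 fold change lay between -0.35 and 0.05.

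Other cell types moved over the same days. Of 12 adipocyte components in *A. cahirinus*, 10, 10, 10 and 11 were called lower from D5 to D20, with the summed level of the list at 38.2% of D0 at D5 and at 19.3% at D20. Of 9 adipocyte genes in *M. musculus*, 6, 7, 7 and 2 were called lower, the last of these against 11.9% of all genes at D20 (17.0% of those with a mean of at least 10). *Cebpa* was called higher there at D5, D10 and D20 (0.84, 0.43 and 0.22), and the summed level was at 80.0%, 70.6%, 71.7% and 84.4% of D0. *Adipoq*, the fat cell hormone adiponectin, fell to 130.7 from 1134 at D20 in *A. cahirinus*, and in *M. musculus* was 113.1 at D0, 25.2 at D15 and 92.1 at D20. *Lep* averaged -3.80 and *Retn* -2.71 in *A. cahirinus* over 4 called days. Their means in *M. musculus* were -1.45 and -1.65, with 2 and 3 days called. Like the median of the lipid genes, the median of the list stood further below D0 in *A. cahirinus* on the last day than it did in *M. musculus*. This did not hold for each gene. The part of fat cells in the values of the lipid genes was not tested.

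The hair shaft and sheath genes followed another course. In *M. musculus* 2 of 10 were called lower at D5 and 1 at D10. None was called higher at D5, and 8, 8 and 9 were called higher from D10 to D20, where 15.1%, 13.2% and 12.3% of all genes were called higher. *Krt71*, a keratin of the inner root sheath, was at 33.0 at D0, 23.5 at D5, 1929 at D10 and 7647 at D20 there. *Krt35* and *Krt86*, keratins of the hair cortex, likewise rose on 3 days each. In *A. cahirinus* 2, 3, 2 and 1 of 9 components were called lower and 0, 0, 2 and 2 higher, where 0.948% to 1.78% of all components were called higher. The median of the list there was -0.28, -1.29, 0.67 and 3.14 from D5 to D20. The *Krt71* component was called lower on all 4 days (mean -1.35), while the component shared by *Krt25* and *Krt27* (2.08 and 4.12) and *Tchh* (2.12 and 4.00) were called higher at D15 and D20. Epidermal genes were called higher at 6 to 9 of 11 in *M. musculus*, against 12.3% to 16.5% of all genes (17.6% to 23.8% of those with a mean of at least 10), and at 4 or 5 of 8 in *A. cahirinus*. In *M. musculus* 1 gene of the list was called lower on each day, and in *A. cahirinus* 1 component at D15 and D20. That component is shared by *Krt14*, *Krt15* and *Krt17* (-0.63 and -0.74). Another is shared by *Krt5* and *Krt6a*, so the 8 components do not each stand for 1 gene. In *M. musculus* the list was led by *Krt16*, *Krt6a* and *Krt1*, and *Krt16* went to 35221 from 40.5 at D5. With *Krt10* at 36865 and *Krt14* at 14788 at D0 in *M. musculus*, keratins of the epidermis were abundant in the labelled ear tissue.

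Myeloid genes such as *S100a8*, *S100a9* and *Cd14* rose in *M. musculus*, with 8, 7, 8 and 5 of 8 genes of the list called higher from D5 to D20, against 16.5%, 15.1%, 13.2% and 12.3% of all genes. In *A. cahirinus* 7, 5, 3 and 0 of 7 components were called higher, against 1.78%, 1.28%, 1.33% and 0.948% of all components. Skeletal muscle genes were called lower at 7 of 7 on each day in *M. musculus* and 6 of 7 in *A. cahirinus*. The remaining component there was called higher on 3 days. It was reached through *Acta1* but had another gene as its own best hit. *Pvalb*, *Tnnt3* and *Myh4* averaged -3.71, -3.09 and -3.50 in *M. musculus*. The part of myeloid and muscle cells in the values of the lipid genes was not tested.

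**Figure D4:**
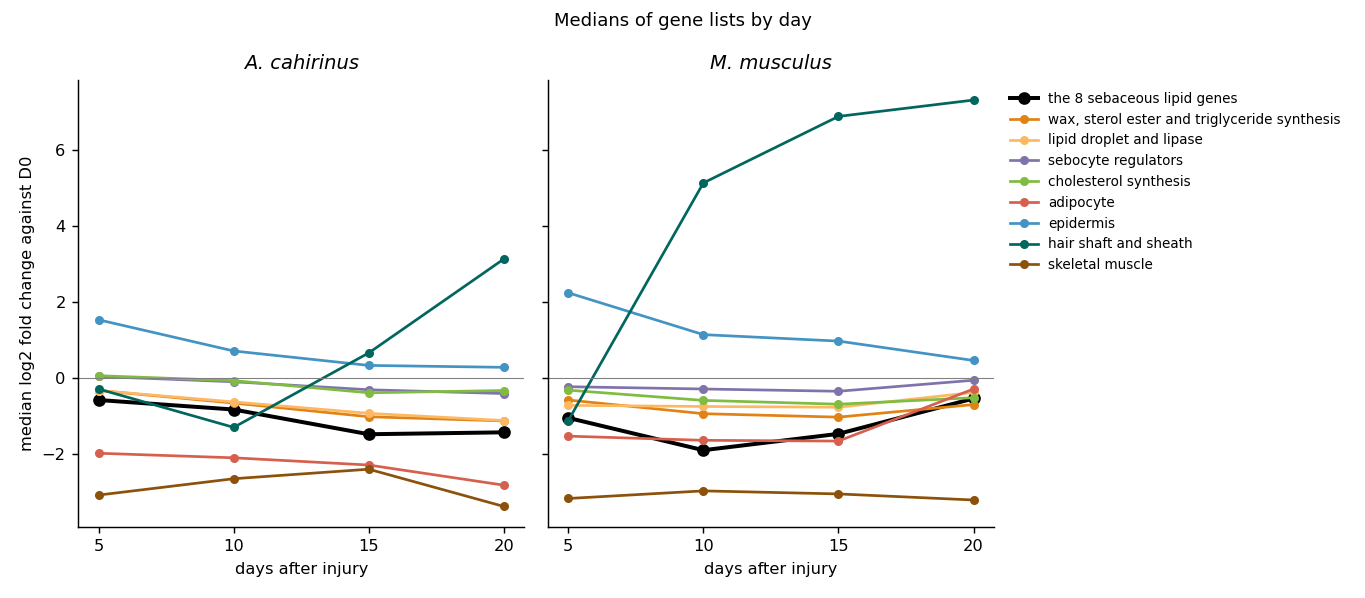
Median log2 fold change against D0 (y axis) by day after injury (x axis) of the 8 sebaceous lipid genes (black; 7 components in *A. cahirinus*) and of 8 gene lists in *A. cahirinus* (left) and *M. musculus* (right). In *M. musculus* the lipid genes and the adipocyte list are both nearer to 0 at D20 (-0.53 and -0.28) than at D10, while in *A. cahirinus* they are further below 0 at D20 (-1.42 and -2.81) than at D10 (-0.82 and -2.09).

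The genes whose 8 fold changes lay closest to the median of the members were sought among 11795 genes whose D0 mean reached 10 in each species. Here the median was taken over the 8 symbols, so that the pooled desaturase component counts for both *Scd1* and *Scd3* and the *A. cahirinus* medians were -0.63 at D5 and -0.83 at D10. The closest by Euclidean distance were *Adig* (0.58), *Cers4* (0.65), *Tmem56* (0.67) and *Pank1* (0.69), against a median distance of 3.81. *Adig*, an adipocyte gene, had log2 fold changes of -0.47, -0.88, -1.34 and -1.43 in *A. cahirinus*, against -1.34, -2.06, -1.08 and -0.69 in *M. musculus*. *Cers4* codes for a ceramide synthase. These distances rest on 8 comparisons that share the D0 groups of each species.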

How the data were processed

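Per the labels, strand-specific libraries were made from ear RNA after ribosomal RNA reduction. For *A. cahirinus* the authors assembled reads with Trinity and for *M. musculus* used mm10 annotations, estimated counts with RSEM and Bowtie, and ran EBSeq for each day against D0 on 3 animals per group. The deposited tables hold, per gene or component, a posterior probability (a score from 0 to 1) and 2 fold changes (a ratio of D0 to the day). No count per animal was used here, so these columns of the authors' comparisons were the only measurements, and no test of animals could be run. The authors' BLASTN tables hold percent identity, and other columns of aligned length and bit score as deposited.

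Fold changes were inverted so that positive log2 values are higher after injury. Group means were recovered from the 2 ratios, which differ in the constant added to both means, and put on the scale of the D5 table. D0 means of a species agreed between its tables within 0.0039 on the log2 scale. A posterior probability of at least 0.95 was a call, which reads the authors' false discovery rate of 0.05 gene by gene.

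*M. musculus* rows are numbered. Names for 22718 numbers were inferred from 1992 known entries and the order of the deposited reference, and 1737 of 1740 held-out entries that were placed were named correctly. *A. cahirinus* components were taken by highest bit score below 99% identity. Levels per kilobase used transcript lengths. Sequences came from the deposited assembly and GENCODE transcripts on GRCm38, aligned with minimap2 2.31 and Biopython 1.88 in Python 3.11.15.

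The members, lists and rules were chosen with earlier results of these data known. Besides the members, the text names the 3 genes per list with the greatest mean log2 fold change among genes with a mean of at least 10 and at least 2 days called, every regulator with a mean of at least 10, and the 5 genes most like the members. Some genes that these rules name are not reported here. *Krt79*, *Krt10*, *Krt14*, *Mc1r*, *Pomc*, *Mrap*, *Scd2*, *Scd4*, *Acly*, *Mcat*, *Plin2*, *Plin3*, *Fabp5*, *Mgst1*, *Lrig1*, *Plet1*, *Cebpa*, *Krt25*, *Krt27* and *Tchh* were named after their values were seen. Alternatives were another threshold, a minimum fold, a minimum mean, a pseudocount, centring, left-out days and other *Scd* components.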

Additional observations from a re-analysis of the deposited data

Results flagged for a closer look

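Features outside the members' own values carried signal. A gene model of 604 bases on the opposite strand of the *Scd1* 3′ UTR had a mean of 606.4 at D0 in *M. musculus*, 1.39% of *Scd1*, with log2 fold changes of -2.99, -3.44, -5.34 and -2.01, called on the first 3 days. The *A. cahirinus* component for the *Scd1* 3′ UTR had a mean of 9881.0 at D0. Another *A. cahirinus* component matching *Scd3* had a mean of 26.2 and was not called on any day. The second *Awat1* piece had a mean of 813.5 at D0. Components at least 99% identical to *M. musculus* *Scd1* numbered 6 in *A. cahirinus*, with a summed mean of 12.36, which is 0.145% of the pooled desaturase component. The source of these near-identical components was not tested.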

How the results depend on the processing

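No paired analysis was possible because the deposited values are pooled over animals, and for the same reason no animal could be left out. Of the recomputed values of the main results, 70 kept their direction and moved by at most 1.5 times, for counts of calls and for fold changes alike. A further 2 moved by more and 1 changed sign. The minimum mean of 10 excluded no member, so it could not change the members' counts. With a minimum log2 fold change of 1, the members called lower in *A. cahirinus* numbered 1, 1, 5 and 5 from D5 to D20 in place of 3, 6, 6 and 6, and those in *M. musculus* 4, 5, 5 and 3 in place of 5, 7, 7 and 4. The median species difference was -0.09 without D5, 0.02 without D10, 0.29 without D15 and 0.41 without D20. For *Scd1* the difference was -1.05 with the 3′ UTR component, a choice made after seeing the data. The causes were not tested. At a threshold of 0.99 the *M. musculus* count at D10 was 6. Centring moved no value by more than 0.024. Low counts limit *Awat2* and *Mc5r* in *M. musculus*, where counting errors at D0 were 12.8% and 8.17%. Means after injury were lower still, at 4.90 for *Awat2* at D10 and 6.47 for *Mc5r* at D5. The counting errors there are larger and were not computed.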
